A study of Caenorhabditis elegans with 57 samples.

Results

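The nuclear hormone receptor genes of Caenorhabditis elegans described here are those whose symbol is nhr- followed by a number. Matching RefSeq symbols to the sequence names of the RNA count table gave 283 such genes among 45461. RefSeq annotates 269 of them as protein-coding and 14 as pseudogenes. At least 1 count was recorded in some RNA library for 281, and 2 had none. Chromosome V carried 176 of them (62.2%, against 25.1% of protein-coding genes), IV 34, I 25, X 24, II 16 and III 8. In RefSeq's WBcel235 annotation 144 had another nhr gene as a direct neighbour, 111 of these on V, and they formed 47 runs with up to 8 genes. Another protein-coding gene or pseudogene overlapped 48. Receptors named below among these included nhr-4, nhr-17, nhr-19, nhr-40, nhr-44, nhr-47, nhr-50, nhr-66, nhr-69, nhr-86, nhr-101, nhr-125 and nhr-230. No source says if strand was used in counting, so reads from overlapping or near-identical genes may be assigned to the wrong gene.

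Nuclear hormone receptors are transcription factors with a zinc-finger DNA-binding domain and a ligand-binding domain that can respond to small lipophilic molecules. In nematodes this family is greatly expanded, largely through receptors related to vertebrate HNF4, beside a small set conserved across animals. Known members set fatty acid desaturation and breakdown, propionate metabolism, moulting, responses to foreign compounds and the development of particular cells. Trimethylation of lysine 27 of histone H3 (H3K27me3) is a repressive mark placed in worms by the MES-2, MES-3 and MES-6 complex. Trimethylation of lysine 36 (H3K36me3) marks transcribed genes and is also kept on germline genes by MES-4.

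The study crossed fathers that lacked MES-3 to mothers that had it, so that offspring received sperm chromosomes without H3K27me3 and oocyte chromosomes with it. In the first cross fem-2(b245ts) mothers of the CB4856 background were mated to N2 fathers of genotype mes-3(bn35); him-8(e1489), giving M+P- offspring, or mes-3(bn35)/hT2-GFP together with him-8(e1489), giving M+P+ offspring. Both kinds of offspring were heterozygous for mes-3(bn35), for fem-2(b245ts) and for him-8(e1489), and RNA came from their hermaphrodite germlines (2 libraries each), male germlines (4 each) and newly hatched L1 larvae of mixed sex (3 each). In the second cross fathers carried mes-3(bn199) with glh-1::GFP::3xflag (sams24), homozygous or over hT2-GFP, and were mated to fem-2(b245ts) mothers. Its F1 hermaphrodites carried glh-1::GFP::3xflag, had 1 copy of mes-3(bn199) and were fem-2(b245ts), and their germlines gave 3 libraries for M+P- and 3 for M+P+. Selfing of the M+P- F1 gave the F2, labelled GM+GP- (3 libraries), which had no father. Fathers were represented by germlines of him-8(e1489) males (3) and of mes-3(bn35); him-8(e1489) males labelled M+Z- (3), whose mothers were mes-3(bn35)/hT2-GFP. All germlines were pooled dissected gonads cut at the bend, from adults on the first day of adulthood, and poly(A) RNA was sequenced. Both marks were mapped by CUT&RUN, which releases DNA bound by an antibody, with 2 libraries per mark in the hermaphrodite germlines of both crosses, the F2 and the him-8 fathers. Offspring of the M+P+ groups therefore also carried a mutant copy of mes-3, and the fathers differed from the offspring groups in genotype.

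The 33 RNA libraries held 5706650 to 19191934 counts. The 12 H3K27me3 libraries held 2797547 to 25714782 counts and the 12 H3K36me3 libraries 1701400 to 41980395. Levels below are CPM, a library's counts scaled to a common total, unless given as RPKM, which also divides by gene length. RNA of mes-3 was present in both kinds of fathers, at 38.7 to 46.5 CPM in him-8 and 20.4 to 41.9 CPM in mes-3 mutants, so its level was not used to check the labels. Summed oocyte markers were 10793 to 11745 CPM in M+P+ and 9188 to 9309 CPM in M+P- hermaphrodite germlines of the first cross. In male germlines of the first cross they were 599.9 to 2270 CPM. A male M+P+ library, replicate 3, stood apart with body muscle markers at 2327 CPM, where the other 3 were between 15.2 and 18.3. A second-cross M+P- F1 library, replicate 3, also stood apart, with counts for 75 nhr genes where the other F1 libraries had up to 176. The H3K36me3 library of hermaphrodite M+P+ replicate 2 was the deepest of all and had 22807 genes with a count. The labels call the samples biological replicates without naming parents or days, so p-values measure the spread between these samples. In pooled tissue, fewer cells of a type cannot be told apart from less RNA per cell. Where receptors are said below not to overlap between groups, the share of all genes without overlap was not counted. Groups this small can separate by chance.

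Nuclear hormone receptor RNA was far higher in larvae than in germlines. In the authors' deposited table of mean RPKM, which lists 275 of the 283 genes, 186 reached 1 RPKM in M+P+ L1 larvae (67.6%, against 61.2% of all genes listed). Only 44 reached it in M+P+ hermaphrodite germlines (16%, against 35.95%). In M+P+ male germlines the count was 24 (8.73%, against 43.1%). By the authors' deposited table, 137 reached it in larvae and in neither germline (49.8%, against 24.6% of all genes listed), 85 in none of these tissues (30.9%, against 26.7%), and 15 in all of them (5.45%, against 27.5%). Those 15 were nhr-10, nhr-13, nhr-15, nhr-23, nhr-47, nhr-49, nhr-61, nhr-64, nhr-66, nhr-86, nhr-95, nhr-97, nhr-114, nhr-230 and nhr-274. Summed over the family, nhr RNA was 4819 to 6298 CPM in the 6 L1 libraries. It was 759.8 to 855.1 CPM in the 4 hermaphrodite germlines of the first cross and 546.1 to 815.2 CPM in the 8 male germlines, so the larvae did not overlap either germline.

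A few receptors stood far above the rest in germlines. In the authors' deposited table the highest mean RPKM in M+P+ hermaphrodite germlines was that of nhr-49 (52.2), an HNF4-related receptor for fatty acid desaturation and β-oxidation. It was followed there by its partner nhr-66 (49.2), by nhr-86 (48.4), which responds to bacterial metabolites, and by nhr-274 (41.3), nhr-23 (31.8) and nhr-71 (11.9). In the male germline the order in the authors' deposited table began with nhr-23 (90.6), the ROR-related receptor of moulting and of spermatogenesis, then nhr-86 (43.0), nhr-274 (28.8), nhr-49 (25.5), nhr-66 (14.3) and nhr-13 (11.6). In L1 larvae the highest in the authors' deposited table were nhr-97 (344.6), the excretory cell receptor nhr-31 (103.2), nhr-49 (88.97), nhr-1 (81.3), nhr-88 (70.9) and nhr-46 (59.2). These are the authors' means, so neighbours in these orders cannot be set against a replicate spread.

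Among the conserved receptors only nhr-23 and nhr-48 were above 1 RPKM in a germline. The authors' deposited table gave the Ftz-F1-related nhr-25 29.7 RPKM in L1 larvae and 0.069 in the hermaphrodite germline. It gave the Rev-erb-related nhr-85 22.3 and 0.21, the TR2-related nhr-41 24.8 and 0.47, the GCNF-related nhr-91 13.6 and 0.068, the xenobiotic receptor nhr-8 8.80 and 0.29, the NR4A-related nhr-6 6.57 and 0.37, and the tailless-related nhr-67 2.53 and 0. For nhr-48 the authors' deposited table had 39.3 in larvae, 9.22 in the hermaphrodite germline and 0.52 in the male germline. The authors' deposited table also had nhr-14, nhr-35, nhr-40 and nhr-64 at 50.0, 30.7, 55.2 and 17.7 RPKM in larvae and 0.17, 1.05, 2.84 and 2.18 in the hermaphrodite germline, and nhr-60 at 0.97 and 0.087. The early embryonic receptor nhr-2 was higher in the hermaphrodite germline (4.84) than in larvae (1.44) in the authors' deposited table. Of the metabolic receptors, nhr-10 and nhr-68, which activate the propionate shunt, had 5.27 and 0.32 RPKM in the hermaphrodite germline in the authors' deposited table. The desaturase regulator nhr-80 was listed at 0 there, and nhr-114, which protects the germline in a diet-dependent way, at 1.24. In larvae the same 4 genes had 42.3, 5.47, 13.05 and 58.5 RPKM in the authors' deposited table.

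**Figure D1:**
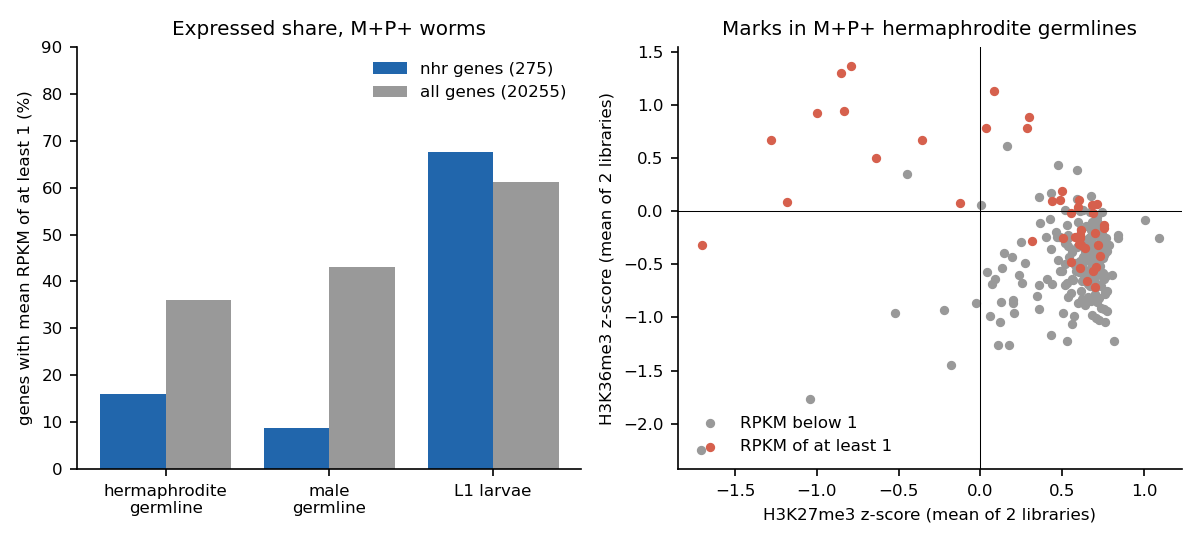
Left, the share of genes with a mean RPKM of at least 1 in the authors' deposited table, for the 275 nhr genes and for all 20255 genes listed, in hermaphrodite germlines, male germlines and L1 larvae of M+P+ worms. Right, the mean z-scores of H3K27me3 (x axis) and H3K36me3 (y axis) of nhr genes in M+P+ hermaphrodite germlines, red where RPKM was at least 1 and grey where it was below, with 5 genes at the lowest z-score of the file left out. The nhr share is below that of all genes in both germlines and above it in larvae, and grey points gather at the lower right.

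H3K27me3 z-scores of most receptor genes lay above 0 in the hermaphrodite germline, which does not by itself call the mark present. Mean H3K27me3 z-scores, as the authors scaled them, were above 0 for 253 of 275 nhr genes (92.0%, against 67.3% of all genes) in M+P+ hermaphrodite germlines. H3K36me3 z-scores were above 0 for 33 (12%, against 43.5%). The 215 autosomal nhr genes below 1 RPKM had a median z-score of 0.66 for H3K27me3 and -0.45 for H3K36me3. The 36 at or above 1 RPKM had medians of 0.49 and 0.01. Among all 6450 autosomal genes at or above 1 RPKM the medians were -0.92 and 1.12, and 18.9% of them had H3K27me3 above 0, where 25 of the 36 receptors (69.4%) did. Both sets share only the floor of 1 RPKM and were not matched for RNA level. No test was made of that difference, since genes are not replicates.

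The 22 receptors not above 0 for H3K27me3 included nhr-16, nhr-52, nhr-109, nhr-114 and nhr-273, which have no usable mark level, as given below. They also included the 4 receptors with the highest hermaphrodite levels, which had H3K36me3 above 0. For nhr-49 the H3K27me3 z-scores of the M+P+ replicates were -0.68 and -0.91, with H3K36me3 at 1.42 and 1.31. For nhr-66 they were -0.66 and -1.04 with 1.26 and 1.34, and for nhr-86 -0.69 and -0.98 with 0.97 and 0.92. For nhr-274 they were -0.92 and -1.07 with 0.93 and 0.92. For nhr-23 H3K27me3 lay near the middle of the scale (0.07 and 0.10), while H3K36me3 was 1.03 and 1.25. In him-8 fathers the highest mean H3K27me3 z-scores were those of nhr-80 (1.16), nhr-249 (0.88), nhr-12 (0.79), nhr-133 (0.74), nhr-262 (0.73) and nhr-291 (0.73). CUT&RUN counts were 0 in every library for nhr-16, nhr-101, nhr-109, nhr-114 and nhr-273, and 3 in all for nhr-52, so these have no usable mark level.

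Fewer receptors were higher than lower in male germlines. Comparing M+P+ male with M+P+ hermaphrodite germlines, 71 nhr genes passed the filter on low counts and 9 were higher in males, where 30.6% of all genes tested were called higher, and 18 lower, where 22.3% were and 52.9% were called either way (edgeR's quasi-likelihood test, Benjamini-Hochberg adjusted p below 0.05). The median log2 fold change of the 71 was -1.29, against 0.08 over all genes tested. The moulting and spermatogenesis receptor nhr-23 had 226, 301, 302 and 294 CPM in males. In hermaphrodites it had 99.5 and 100 CPM, so the groups did not overlap and the log2 difference was 1.71 ± 0.16 (SE, adjusted p = 0.000296).

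The largest male-high differences were of receptors that hermaphrodite germlines hardly had. For nhr-118 males had 1.16, 2.04, 2.21 and 3.78 CPM and both hermaphrodite libraries had 0, which makes males at least 9.63-fold higher with a floor of 3 counts per library (adjusted p = 0.00353). For nhr-266 males had 11.5, 11.6, 15.1 and 19.2 CPM and hermaphrodites 0.169 and 0, a ratio of 179 with a 95% exact counting interval of 49.4 to 1483. For nhr-171 and nhr-234 the ratios were 115 (20.4 to 4554) and 107 (18.9 to 4234). These intervals cover counting error only. The desaturase regulator nhr-80 (ratio 53.1, 9.32 to 2117) and nhr-62, a receptor for longevity under dietary restriction (32.0, 10.8 to 157), were also higher in males. So were nhr-19 (4.54 ± 0.58) and nhr-13 (1.26 ± 0.36) on the log2 scale. None of the 9 was on X, where 0 of 24 nhr genes, and 11.9% of all X genes, reached 1 RPKM in males in the authors' deposited table.

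Receptors lower in males than in hermaphrodites included nhr-181, with 7.53 and 8.78 CPM in hermaphrodites and 0, 0, 0.17 and 0.0859 in males (ratio 136, 46.0 to 667). They included the X-linked nhr-71 (-5.83 ± 1.68), nhr-17 (-5.522 ± 1.223), nhr-48 (-3.77 ± 1.15) and nhr-32 (-3.71 ± 0.95) on the log2 scale. On autosomes they included nhr-12 (-4.68 ± 0.65), nhr-190 (ratio 30.7, 7.80 to 264), nhr-46 (-4.41 ± 1.01) and the early embryonic nhr-2 (-2.70 ± 0.40). The lipid receptors nhr-66 (-1.55 ± 0.13) and nhr-49 (-0.84 ± 0.12) were lower in males as well. For nhr-49 hermaphrodites had 110 and 108 CPM and males 59.1, 51.2, 56.4 and 43.3, with no overlap. The number of calls rose from 27 to 45 without male M+P+ replicate 3 and was 11 and 13 without hermaphrodite M+P+ replicate 1 or 2. When either of those hermaphrodite libraries was left out, nhr-13, nhr-17, nhr-32, nhr-46, nhr-48, nhr-71, nhr-80 and nhr-190 were not called, and leaving out replicate 1 also lost nhr-2 and nhr-62. Leaving out male M+P+ replicate 2 lost nhr-13, and leaving out male M+P+ replicate 4 lost nhr-13, nhr-48 and nhr-71. Both M+P+ hermaphrodite libraries also serve as controls in the comparison of offspring below.

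Between L1 larvae and hermaphrodite germlines 214 nhr genes were tested, and 194 were higher in larvae, where 54.3% of all genes tested were higher and 83.2% differed either way. Of those, nhr-50 had 24.1, 42.2 and 18.5 CPM in larvae and 0 in both germline libraries, at least 119-fold higher. The same floor gave at least 114.4-fold for nhr-125, 91.5-fold for nhr-203, 91.1-fold for nhr-44, 75.7-fold for nhr-99 and 68.2-fold for nhr-55. Only 3 nhr genes were lower in larvae (28.9% of all genes were): nhr-181, nhr-23 (-3.19) and nhr-86 (-0.69, not called without hermaphrodite M+P+ replicate 2). The median log2 fold change was 5.95 over nhr genes, 4.87 with the 49 genes at 0 in a group set to their bound, and 2.69 over all genes tested.

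In fathers the loss of MES-3 went with higher RNA of 8 receptors and lower RNA of none. There 41 nhr genes were tested, and 7.01% of all genes tested were higher, 1.32% lower and 8.33% called in all in mes-3 mutants. The median log2 fold change was 1.16 over the 41, against 0.03 over all genes. The propionate shunt activator nhr-10 had 1.41, 1.27 and 1.06 CPM in him-8 and 14.9, 14.7 and 13.5 CPM in mes-3 germlines (log2 3.46 ± 0.28, adjusted p = 0.000518). For nhr-47 the values were 2.82, 2.68 and 3.49 against 15.4, 15.6 and 15.6 CPM (2.32 ± 0.25, adjusted p = 0.00204). Neither gene overlapped between the groups, and both were called without any 1 of the 6 libraries.

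The receptor nhr-81 was at 0 in all 3 him-8 germlines and had 6.53, 6.48 and 3.34 CPM in mes-3 germlines, at least 12.6-fold higher (adjusted p = 0.00781). Its neighbour on chromosome I, nhr-165, had 0.141, 0 and 0 against 4.05, 1.05 and 1.67 CPM (ratio 48.7, 8.36 to 1961), and nhr-277 had 0, 0.141 and 0 against 2.09, 1.05 and 3.46. Both of these were below the filter and were not tested. The HNF4-related nhr-69 had 0.705, 0.141 and 0.456 against 3.26, 3.86 and 2.75 CPM (2.83 ± 0.59, adjusted p = 0.0273), and it overlaps the gap junction gene inx-20. For nhr-104 the values were 0.987, 1.69 and 0.152 against 6.92, 6.66 and 6.21 CPM (2.72 ± 0.66, adjusted p = 0.0474). In every library of mes-3 fathers these 5 receptors were above every library of him-8 fathers.

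The other receptors that passed were nhr-13 (2.12 ± 0.35), nhr-171 (1.497 ± 0.306) and nhr-101 (ratio 23.4, 6.14 to 199). The most abundant germline receptors did not pass, at log2 -0.09 for nhr-23, 0.00 for nhr-49, 0.01 for nhr-66 and 0.10 for nhr-86. Nor did the metabolic receptors nhr-80 (1.08 ± 0.34, adjusted p = 0.11), nhr-68 (1.20 ± 1.02) and nhr-114 (0.79). Without single libraries the 8 calls fell to 5 (him-8 replicate 1, mes-3 replicate 1 or 3), 3 (him-8 replicate 2), 7 (him-8 replicate 3) and 2 (mes-3 replicate 2). Of the 6 fits, nhr-69 was lost in 6, nhr-104 and nhr-171 in 5, nhr-101 in 4, nhr-13 in 2 and nhr-81 in 1, the one without mes-3 replicate 2. Somatic markers were higher beside them: 2 of 6 tested body muscle markers, 2 of 3 neuron and 2 of 4 somatic gonad markers were called higher, and 0 of 2 intestine and 0 of 9 germline markers. Summed somatic gonad markers were 50.9 to 75.7 CPM in him-8 and 85.9 to 101.6 CPM in mes-3 germlines, and summed muscle markers 21.4 to 52.3 and 46.0 to 154.7 CPM. Their part in the receptor result was not tested.

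In M+P- hermaphrodite germlines, whose sperm chromosomes came from mes-3 mutant fathers, 9 of 70 tested receptors were higher (5.11% of all genes tested were) and 5 lower (4.63%; 9.74% either way). The higher ones were all autosomal, and 4 of the 5 lower ones lay on X, where 10 nhr genes were tested and 37.9% of all X genes tested were called lower. The median log2 fold change of X-linked nhr genes was -0.77, against -0.71 over all X genes. On autosomes it was 0.22, against 0.02.

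The neighbours nhr-81 and nhr-165 were among the receptors that rose. For nhr-81 the M+P+ germlines had 0.423 and 0 CPM and the M+P- germlines 5.25 and 5.55 (4.69 ± 0.63, adjusted p = 0.000455). For nhr-165 they had 0 and 0 against 1.90 and 1.49, at least 7.11-fold higher (adjusted p = 0.0008). Neither gene overlapped between the groups. The genes on either side of the pair had these values, with no test: C47F8.7 was at 0 in all 4 libraries, and C47F8.1 had 1.18 and 0.67 CPM in M+P+ and 2.54 and 1.90 CPM in M+P- germlines.

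Other receptors that rose had low levels too. For nhr-104 the values were 1.02 and 0.596 CPM in M+P+ against 5.43 and 5.88 in M+P- germlines (2.81 ± 0.39, adjusted p = 0.000629). For nhr-22 they were 8.29 and 6.70 against 21.7 and 16.9 CPM (1.37 ± 0.22, adjusted p = 0.00147), and for nhr-69 1.18 and 0.223 against 4.80 and 4.22 CPM (2.71 ± 0.52, adjusted p = 0.00448). None of these overlapped between groups. The rest were nhr-213 (ratio 42.6, 7.21 to 1725), nhr-11 (2.06 ± 0.45), nhr-19 (2.02 ± 0.51) and nhr-78 (1.25 ± 0.35). The fall was largest for the muscle receptor nhr-40, with 5.84 and 5.58 CPM in M+P+ and 0.634 and 1.49 CPM in M+P- germlines (-2.40 ± 0.41, adjusted p = 0.00205). The X-linked nhr-45 (-2.04 ± 0.46), nhr-71 (-0.82 ± 0.17) and nhr-48 (-0.61 ± 0.17) and the chromosome V gene nhr-95 (-0.99 ± 0.26) also fell.

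The abundant lipid receptors had values near 0 on the log2 scale in the same test, 0.05 ± 0.07 for nhr-49, 0.04 ± 0.07 for nhr-66 and -0.00 ± 0.10 for nhr-86. Among the conserved receptors nhr-6 (1.03 ± 0.49), nhr-23 (0.15) and nhr-41 (0.50) did not pass, nor did nhr-10 (0.69 ± 0.28, adjusted p = 0.19). Calls numbered 8 without either M+P+ library, 10 when M+P- replicate 1 was left out and 14 when replicate 2 was. The genes nhr-81, nhr-104, nhr-165, nhr-213, nhr-22 and nhr-40 were called in each of these fits. The calls of nhr-45 and nhr-95 were lost in all of them. Leaving out M+P+ replicate 1 or 2 also lost nhr-11, nhr-19, nhr-48 and nhr-78, and replicate 1 nhr-71 as well. Leaving out M+P- replicate 1 lost nhr-19, nhr-69 and nhr-78 too, and leaving out M+P- replicate 2 lost nhr-11 and nhr-48 too. All 4 tested intestine markers and 2 of 5 muscle markers were also higher in M+P- germlines. Summed intestine markers were 23.4 to 32.0 CPM in M+P+ and 52.8 to 150.5 CPM in M+P-, and muscle markers 15.6 to 18.3 and 42.5 to 45.2 CPM. Germline markers gave 0 calls of 9. Summed oocyte markers were lower in M+P-, at 9188 to 9309 CPM against 10793 to 11745 CPM in M+P+. The part of these markers was not tested.

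In male germlines 46 nhr genes were tested, 2 were higher in M+P- (0.49% of all genes were) and none lower. The values of nhr-81 were 0, 0, 0.0849 and 0 CPM in M+P+ and 1.08, 3.25, 2.60 and 2.11 CPM in M+P- germlines (ratio 115, 20.2 to 4567, adjusted p = 0.0284). For nhr-78 they were 0.218, 0.236, 0.594 and 0.258 against 2.62, 4.62, 3.75 and 3.49 CPM (3.41 ± 0.44, adjusted p = 0.0237). Neither gene overlapped between groups. Both calls were lost without any 1 of M+P+ replicates 1, 2 and 4 or M+P- replicates 2, 3 and 4, and no nhr gene was called in those fits.

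Without M+P+ replicate 3, the library with high muscle markers, 5 receptors were called higher in M+P- male germlines: nhr-10, nhr-165, nhr-81, nhr-78 and nhr-104. The share of all genes called in that fit is not given. The groups of that fit still differed in muscle markers. Summed, these were 35.2 to 260.7 CPM in M+P- and 15.2 to 18.3 CPM in the remaining M+P+ libraries, with no overlap. Summed intestine markers were 2.84 to 31.2 CPM and 0.859 to 4.5 CPM in the same libraries, which overlapped. The part of either kind of marker was not tested. With M+P+ replicate 3 included, the propionate receptor nhr-10 had 0.87, 1.10, 4.16 and 1.37 CPM in M+P+ male germlines. In M+P- it had 14.5, 10.9, 9.15 and 5.14 CPM (2.35 ± 0.58, adjusted p = 0.28). For nhr-165 the values were 0, 0, 0.17 and 0 against 0.923, 1.11, 1.25 and 1.19 CPM, a ratio of 27.7 (7.30 to 234), and for nhr-104 0.943, 1.02, 3.99 and 1.98 against 7.77, 7.68, 7.32 and 8.90 CPM. These 3 receptors did not overlap between groups. By contrast nhr-69 did, at 0.29, 0.236, 3.23 and 0.258 against 2.77, 1.95, 0.963 and 0.0918 CPM. The abundant receptors nhr-23 (0.02 ± 0.15), nhr-49 (-0.16 ± 0.13), nhr-66 (-0.04 ± 0.14) and nhr-86 (-0.04 ± 0.09) did not pass the test over all 8 libraries. Neighbouring C47F8.1 was at 0 in every male M+P+ library and in 3 of the 4 M+P- libraries, and C47F8.7 was at 0 in all 8.

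**Figure D2:**
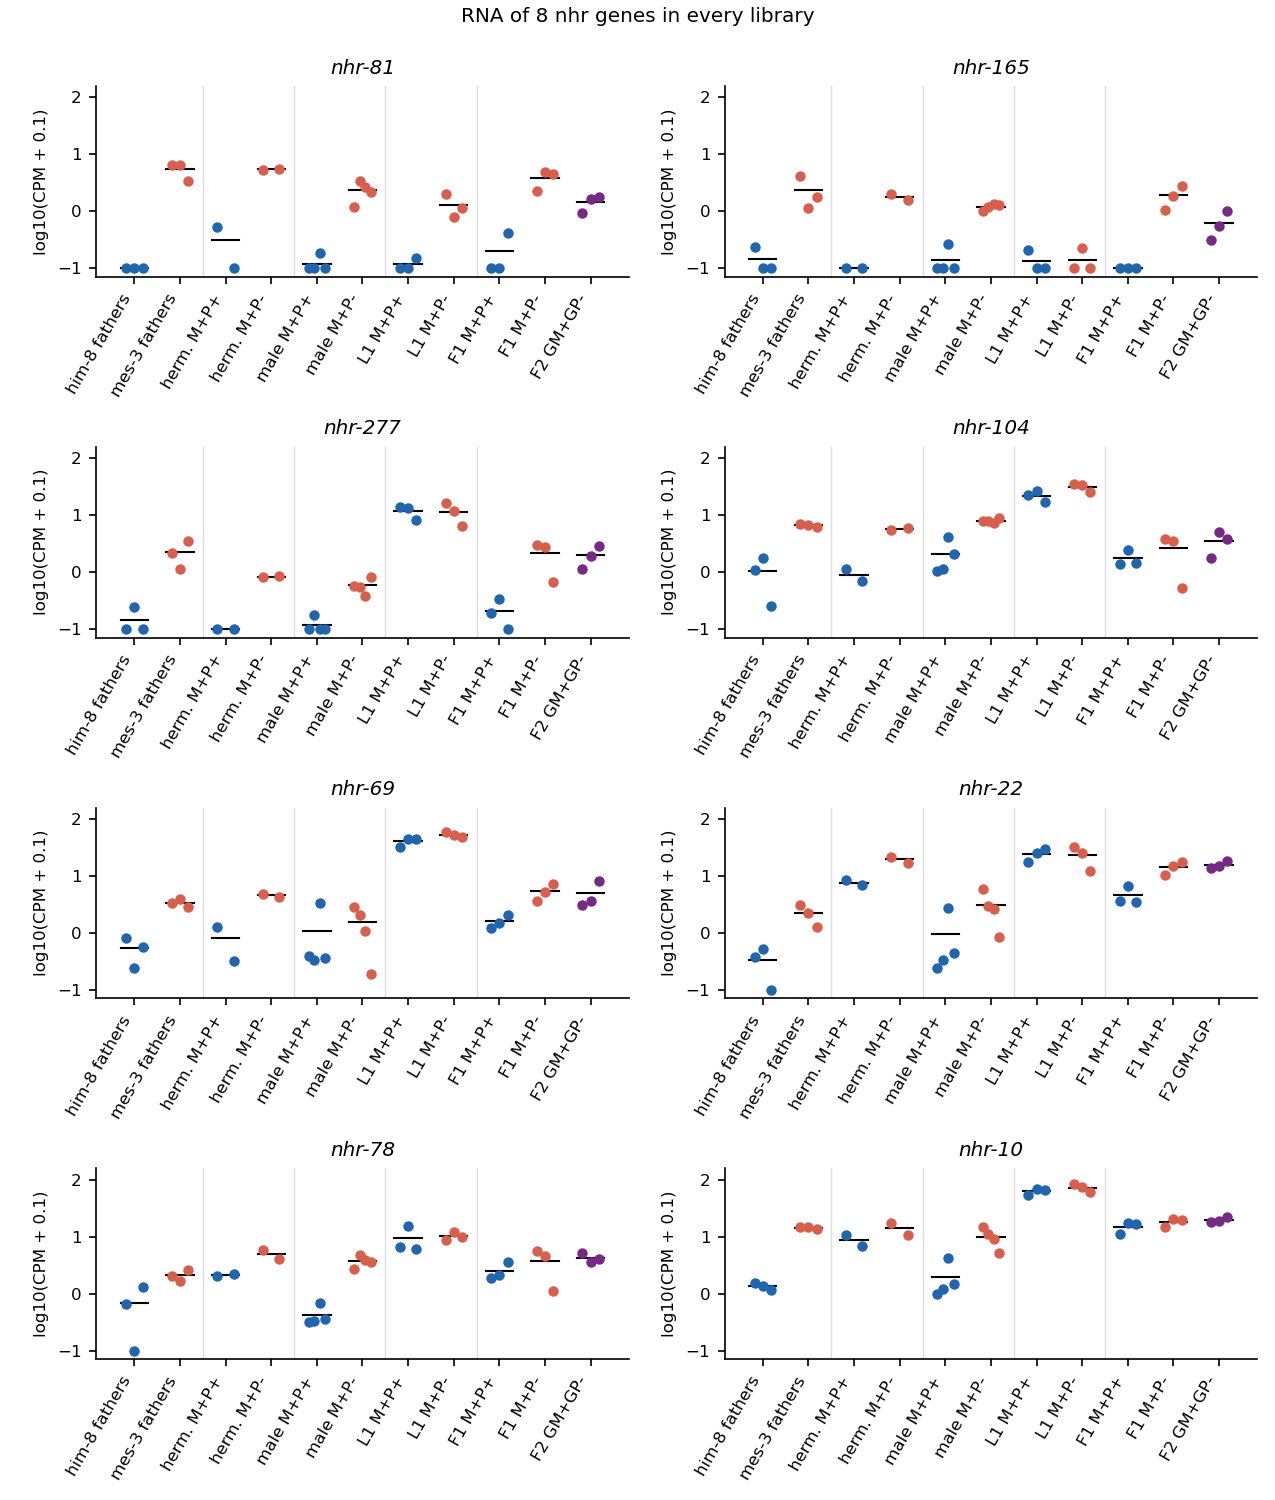
Level of 8 receptors (nhr-81, nhr-165, nhr-277, nhr-104, nhr-69, nhr-22, nhr-78 and nhr-10) in each RNA library, as log10 of CPM plus 0.1, by group. Each point is a library, blue for controls (him-8 and M+P+), red for mes-3 fathers and M+P- offspring and purple for the F2, and the black line is the log10 of the group mean CPM plus 0.1. The points of nhr-81 sit at or near the bottom in the control germlines and higher in mes-3 and M+P- germlines.

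In whole L1 larvae edgeR called none of 223 tested receptors (0% of all genes were higher and 0.00684% lower), with 13 at an unadjusted p below 0.05, and DESeq2 called 2, nhr-152 higher and nhr-119 lower in M+P-. The values of nhr-81 were 0, 0 and 0.0525 CPM in M+P+ and 1.88, 0.705 and 1.04 CPM in M+P- larvae. That is a ratio of 65.7 (11.3 to 2638), with no overlap, but an adjusted p of 0.54. Its neighbour nhr-165 had at most 0.128 CPM in any larva. Summed germline markers were 19.2 to 65.4 CPM in larvae, and the part of germ cells in larval values was not tested. The metabolic receptors lay near 0 on the log2 scale, at 0.09 ± 0.17 for nhr-10, -0.12 ± 0.18 for nhr-49, 0.14 ± 0.20 for nhr-114 and -0.39 ± 0.21 for nhr-66, and so did nhr-25 (-0.16 ± 0.23) and nhr-23 (-0.14 ± 0.36). For nhr-104 larvae had 22.2, 26.2 and 17.01 CPM in M+P+ and 35.6, 33.6 and 25.1 CPM in M+P-, and these overlapped.

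A fit with an interaction term asked whether the M+P- effect differed between tissues. Of 230 nhr genes tested in it, edgeR called 0 for male minus hermaphrodite, L1 minus hermaphrodite and L1 minus male, where 0%, 0.0468% and 0.135% of all genes were called. At an unadjusted p below 0.05 there were 11, 10 and 14 nhr genes. DESeq2 called 10 nhr genes in at least 1 of these contrasts. Leaving out single libraries gave 0 to 11, with 11 without male M+P+ replicate 3.

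**Figure D3:**
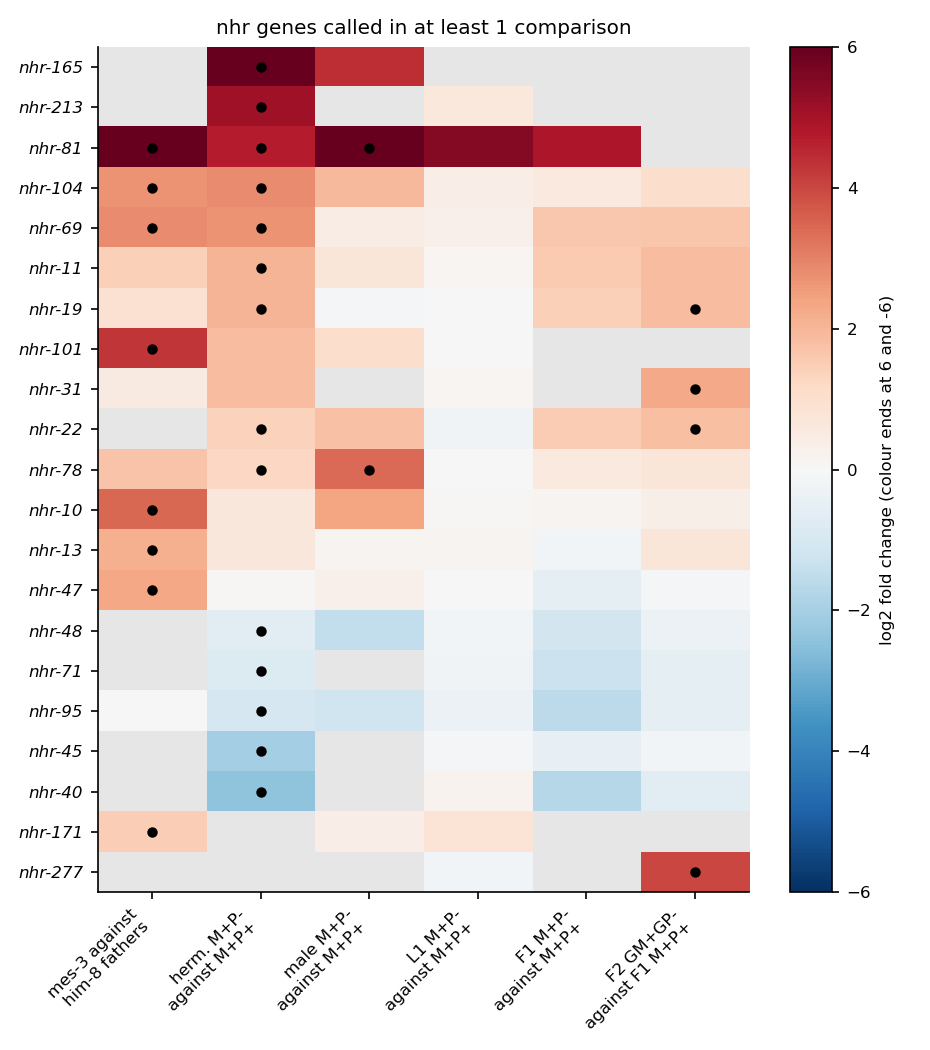
Log2 fold change of the 21 receptors called in at least 1 of 6 RNA comparisons (fathers, hermaphrodite, male, L1 larvae, second-cross F1, and F2 against F1 M+P+). Colours run from -6 to 6, a dot marks an adjusted p below 0.05 and grey marks a gene that was not tested. The row of nhr-81 is red in all 5 comparisons that tested it, with dots for fathers, hermaphrodites and males.

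The second cross used another mes-3 allele. In its F1 hermaphrodite germlines edgeR called 0 of 58 tested receptors (0% of all genes), with 5 at an unadjusted p below 0.05. DESeq2 called 5, all higher in M+P-: nhr-81, nhr-6, nhr-19, nhr-22 and nhr-69. Without M+P- replicate 3, the library that stood apart, edgeR called 4, with nhr-81 (4.85), nhr-22 (1.49) and nhr-277 (4.54) higher and nhr-95 (-0.99) lower. The values of nhr-81 were 0, 0 and 0.312 CPM in M+P+ and 2.18, 4.73 and 4.48 CPM in M+P- (ratio 35.99, 11.9 to 178; adjusted p = 0.56). For nhr-165 all 3 M+P+ libraries were at 0 and M+P- had 0.968, 1.74 and 2.74 CPM, at least 5.78-fold higher. For nhr-22 the values were 3.57, 6.54 and 3.33 against 10.3, 14.9 and 17.6 CPM, and for nhr-69 1.13, 1.40 and 1.97 against 3.51, 5.11 and 7.08 CPM. These 4 named genes had no overlap between groups, and the share of all genes without overlap was not counted. Intestine markers spread widely in both, from 221.0 to 897.5 CPM in M+P+ and from 27.4 to 1824 CPM in M+P-. Summed muscle markers were 23.05 to 44.04 CPM in M+P+ and 48.8 to 88.9 CPM in M+P-, with no overlap. The part of either kind of marker was not tested.

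In the F2, without a replicate block, 4 of 64 tested receptors were higher than in the M+P+ F1 (2.54% of all genes were). None was lower (0.663%, with 3.21% either way). With replicate number as a block more receptors were called, some of them lower, as given below. Folds, SE and p-values here are of the fit without the block. The same M+P+ libraries are the controls of the F1 comparison, so the 2 comparisons are not independent. For nhr-22 the F2 had 13.9, 15.1 and 17.9 CPM, above all 3 controls (1.79 ± 0.24, adjusted p = 0.00211), and it was called without any 1 of the 6 libraries. For nhr-277 the F2 had 1.05, 1.84 and 2.78 CPM against 0.0941, 0.234 and 0 (ratio 18.5, 6.03 to 92.1, adjusted p = 0.0111). The excretory cell receptor nhr-31 had 1.79, 2.76 and 2.68 against 0.658, 0.701 and 0.104 CPM (2.25 ± 0.50, adjusted p = 0.0317). For nhr-19 the F2 had 2.1, 2.21 and 4.16 against 0.941, 0.934 and 0.416 CPM (1.84 ± 0.44, adjusted p = 0.0472), and it overlaps mrpl-53. None of these overlapped between groups.

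For nhr-81 the F2 had 0.84, 1.57 and 1.67 CPM, above every M+P+ value and below every M+P- value of the F1 (ratio to M+P+ 13.2, 4.24 to 66.7; below the filter and not tested). For nhr-165 it had 0.21, 0.46 and 0.925 CPM, again below all M+P- F1 libraries. Against the M+P- F1, edgeR called 0 of 60 receptors in the F2 (0% of all genes), with 1 at an unadjusted p below 0.05, and DESeq2 called 0. There nhr-81 had a log2 difference of -1.35 ± 0.43. With replicate number as a block, 10 receptors were called against the M+P+ F1, 8 higher and 2 lower. Calls numbered 1 without M+P+ replicate 1 or F2 replicate 3, 2 without F2 replicate 1, 3 without M+P+ replicate 2 or 3 and 6 without F2 replicate 2. The call of nhr-277 was lost without M+P+ replicate 1 or F2 replicate 3. Those of nhr-31 and nhr-19 were each lost in all but 1 of these 6 fits. Summed muscle markers were 23.05 to 44.04 CPM in the M+P+ F1 and 64.4 to 75.2 CPM in the F2, and their part was not tested.

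Without a replicate block, no receptor passed the test for total H3K27me3 between M+P- and M+P+ germlines in either cross when all libraries were used. With replicate number as a block, receptors were called in the first cross, as counted at the end. Same-numbered libraries had correlations of 0.67 in the first cross and 0.17 in the second, and 2 libraries a group are too few to show pairing. In the first cross edgeR called 0 of 277 (0% of all genes; 3 at an unadjusted p below 0.05; DESeq2 0), with a median log2 difference of -0.07 over nhr genes and -0.01 over all. For nhr-81 it was -0.41 ± 0.23, for nhr-165 -0.42 ± 0.21, for nhr-104 -0.39 ± 0.16 and for nhr-22 -0.56 ± 0.26, none past the test. In the second cross edgeR called 0 of 277 (0% of all genes; 5 at an unadjusted p below 0.05; DESeq2 0). Without its M+P- replicate 2, 1 receptor (nhr-115) was called.

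Between the F2 and the M+P+ F1, H3K27me3 was lower at 11 of 277 tested receptors (9.91% of all genes were) and higher at 3 (0.65%). The median log2 difference over the 277 was 0.13, toward more mark in the F2. Those with lower mark included the abundant germline receptors. For nhr-49 the F1 had 46.2 and 46.5 CPM and the F2 30.6 and 23.8 (-0.77 ± 0.16, adjusted p = 0.00361). For nhr-274 they had 62.4 and 82.8 against 36.9 and 46.9 CPM (-0.79 ± 0.16), for nhr-86 48.4 and 65.6 against 34.0 and 37.9 (-0.66 ± 0.16), and for nhr-66 80.3 and 105.3 against 67.3 and 61.5 (-0.53 ± 0.13). No F2 library of these 4 receptors reached an F1 library. The others were nhr-191, nhr-243, nhr-230, nhr-145, nhr-4, nhr-41 (-0.51 ± 0.11) and nhr-22 (-0.40 ± 0.13). The 3 with more mark were nhr-133, nhr-87 and nhr-83, between 0.41 and 0.48. The 14 calls became 16 without F1 M+P+ replicate 1, 4 without F1 M+P+ replicate 2, 9 without F2 replicate 1 and 15 without F2 replicate 2. In none of these fits were nhr-22 and nhr-87 called, and nhr-133 was called only with F2 replicate 2 left out. With F1 M+P+ replicate 1 left out nhr-243 was lost. The 4 calls that remained with F1 M+P+ replicate 2 left out were nhr-274, nhr-49, nhr-41 and nhr-243. Leaving out F2 replicate 1 lost nhr-83, nhr-145 and nhr-230, and leaving out F2 replicate 2 lost nhr-4. RNA of nhr-49, nhr-66 and nhr-86 was not called in this comparison without a replicate block.

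H3K36me3 moved at nhr-22. In the second-cross F1 it was the only receptor of 276 called, higher in M+P- (0.121% of all genes were), with 81.9 and 67.8 CPM against 21.3 and 34.1 (1.39 ± 0.25, adjusted p = 0.0279). The F2 had 75.5 and 80.3 CPM and the him-8 fathers 20.6 and 40.5. The call was lost when replicate 1 of either group was left out. Its RNA was 3.33 to 6.54 CPM in the same M+P+ group and 10.3 to 17.6 CPM in M+P-. In the first cross edgeR called 0 of 276 (0% of all genes; 3 at an unadjusted p below 0.05; DESeq2 0), and nhr-22 had 45.3 and 13.7 CPM in M+P+ and 62.7 and 81.9 CPM in M+P-. That fit rests on the H3K36me3 library that stood apart. Leaving out M+P+ replicate 1 leaves that library, of 41980395 counts, as the only M+P+ library. Leaving out replicate 2 also leaves 1. More receptors were called in the first of these fits than in the second, and neither count is a result about receptors. In the F2 against the M+P+ F1 edgeR called 0 of 276 (0% of all genes; 56 at an unadjusted p below 0.05; DESeq2 0). Calls appeared without F2 replicate 1 or F1 M+P+ replicate 2. Each of these fits leaves 1 library in a group, so the calls are not a result about receptors.

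Alleles were told apart by sequence differences between N2 sperm and CB4856 oocyte chromosomes. The authors' deposited table counts such differences in exons of 154 nhr genes, while 212 had enough CUT&RUN allele reads to test at H3K27me3. The labels do not say which differences those reads covered. At H3K27me3, 5 of 212 tested receptors had a lower sperm share in M+P- than in M+P+ germlines of the first cross (1.27% of all genes did) and none a higher one (0.017%). For nhr-104 the M+P- libraries had 49 sperm and 122 oocyte reads, and 56 and 181. The M+P+ libraries had 99 and 108, and 137 and 117, a log2 difference in sperm against oocyte reads of -1.57 ± 0.31 (adjusted p = 0.00632). This receptor's RNA was also higher in M+P- hermaphrodite germlines. For nhr-288 the difference was -1.59 ± 0.30, for nhr-121 -1.19 ± 0.26, for nhr-44 -1.99 ± 0.52 and for nhr-170 -1.39 ± 0.36. With either M+P+ library or M+P- replicate 2 left out none was called, and without M+P- replicate 1 7 were, nhr-104 and nhr-288 among them.

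Over nhr-81 the same mark had 15 sperm and 32 oocyte reads, and 22 and 49, in M+P- germlines. In M+P+ it had 38 and 39, and 62 and 44 (-1.37 ± 0.47, adjusted p = 0.15). For nhr-165 the difference was -1.70 ± 0.49 (adjusted p = 0.076) and for nhr-78 -0.94 ± 0.26 (adjusted p = 0.062). In the second cross edgeR called 0 of 212 receptors for H3K27me3 alleles (0% of all genes; 12 at an unadjusted p below 0.05). Leaving out its M+P- replicate 2 gave 2, nhr-150 and nhr-64. For H3K36me3 alleles it called 0 of 163 in the first cross (0% of all genes; 9 at an unadjusted p below 0.05) and 0 of 164 in the second (0%; 7). Without M+P+ replicate 1 the first-cross H3K36me3 fit keeps only the M+P+ library that stood apart. Calls appeared in it, which are not a result about receptors.

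RNA allele reads were too few for most receptors. Those that could be tested numbered 7 in hermaphrodite germlines, 5 in male germlines, 77 in larvae and 8 in the second-cross F1, and edgeR called none. Of all genes, 0.407%, 0.284%, 0.0292% and 0.049% had a higher sperm share in these tests. At an unadjusted p below 0.05 there were 2, 0, 3 and 0 receptors. For nhr-49 M+P- germlines had 41 sperm and 34 oocyte reads, and 38 and 35, and M+P+ had 31 and 36, and 35 and 44 (0.47 ± 0.41). The allele reads of 3 receptors in male germlines are given without a test. Of these, nhr-10 and nhr-104 were not called in males over all 8 libraries. In M+P- nhr-78 had 8 sperm and 1 oocyte reads, then 10 and 0, 5 and 2, and 6 and 0. There nhr-104 had 8 and 3, 12 and 1, 3 and 0, and 12 and 0, and nhr-10 13 and 0, 9 and 1, 4 and 1, and 1 and 0. In M+P+ nhr-78 had 0 sperm and 0 oocyte reads in 3 libraries and 0 and 1 in the other. There nhr-104 had 0 and 0, 0 and 2, 0 and 2, and 1 and 0, and nhr-10 0 and 0, 0 and 1, 4 and 2, and 1 and 0. In F1 germlines of the second cross nhr-10 had 6 sperm and 4 oocyte reads, and 8 and 7, in M+P-, and 10 and 2, 8 and 4, and 9 and 2 in M+P+ (-1.36 ± 0.88, adjusted p = 0.8516). No allele read covered nhr-81 in RNA.

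Summed over autosomal nhr genes, sperm-allele RNA was 60.8% and 59.6% in M+P- and 52.7% and 47.2% in M+P+ hermaphrodite germlines. All autosomal genes had means of 52.8% and 51.8% there. The nhr shares rest on few reads, 216 sperm and 139 oocyte in M+P- replicate 1 and 187 and 168 in M+P+ replicate 1. In male germlines nhr genes had 61.6%, 58.9%, 55.9% and 55.1% in M+P- and 58.9%, 45.03%, 49% and 49.8% in M+P+, which overlapped. In L1 larvae they had 54.7%, 58.9% and 58.9% in M+P- and 52.15%, 52.6% and 57.4% in M+P+, which overlapped too. In the second-cross F1 they had 68.2% and 63.37% in M+P- and 54.8%, 58.6% and 63.36% in M+P+. The sperm share of H3K27me3 was 50.0% ± 2.09 (SD, n = 2) in M+P- and 55.03% ± 0.182 (n = 2) in M+P+ hermaphrodite germlines, and that of H3K36me3 65.1% ± 2.65 and 55.8% ± 0.892. In the second cross the values were 49.5% ± 2.09 and 53.6% ± 2.13 for H3K27me3 and 64.2% ± 0.80 and 55.5% ± 1.21 for H3K36me3. In the F2 they were 51.5% ± 0.559 and 56.8% ± 1.64. The F2 had no father, and its alleles trace to the grandparents' sperm and oocytes. Among all autosomal genes the H3K27me3 means were 46.4% in M+P- and 52.6% in M+P+ of the first cross, 47.1% and 51.4% in the second and 49.4% in the F2. Their H3K36me3 means were 58.0% and 54.7%, 57.99% and 54.9%, and 55.3%. These sums are given without a test.

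**Figure D4:**
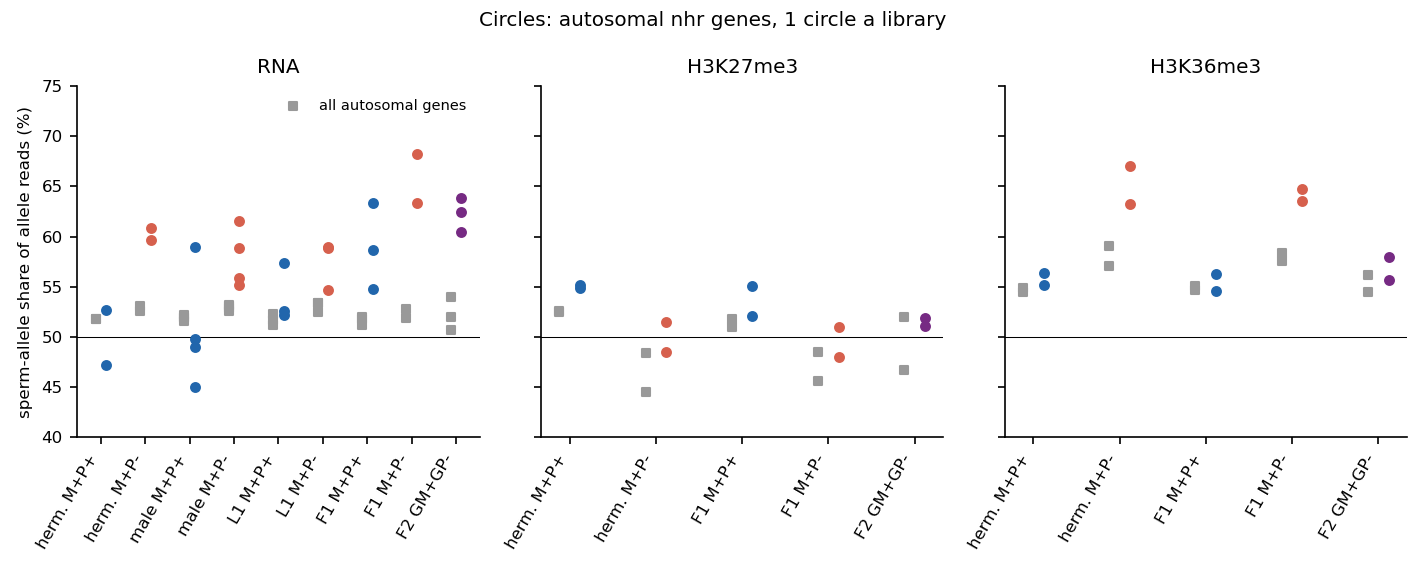
Sperm-allele share, in percent, of reads over autosomal nhr genes (circles, 1 per library; blue M+P+, red M+P-, purple F2) and over all autosomal genes (grey squares), for RNA, H3K27me3 and H3K36me3. The y axis runs from 40 to 75. Red circles lie above the blue ones for H3K36me3 in both crosses and below them for H3K27me3. The F2 alleles trace to the grandparents.

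Other genes of receptor signalling were counted from lists. Of all genes tested, 7.01% were higher in mes-3 fathers, 5.11% in M+P- hermaphrodite and 0.49% in M+P- male germlines. A single call in a list this short is not a result about the list. In mes-3 fathers the nuclear receptor unc-55 (3.54 ± 0.64, adjusted p = 0.0164), the only tested receptor under another name, rose. Of 5 tested coregulators the corepressor din-1, which acts with the steroid receptor DAF-12, was higher (4.72 ± 0.51, adjusted p = 0.00215) and none lower. Of 7 tested lipid and propionate targets only acs-2, an acyl-CoA synthetase activated by NHR-49, was higher (2.07 ± 0.46, adjusted p = 0.034). None of 2 ligand synthesis genes and of 1 moulting target was called. In M+P- hermaphrodite germlines acdh-1, the acyl-CoA dehydrogenase of the propionate shunt, was higher (1.06 ± 0.29, adjusted p = 0.0394), 1 of 4 tested targets. Summed intestine markers were higher there too, at 52.8 to 150.5 CPM against 23.4 to 32.0 in M+P+, and their part was not tested. No coregulator of 5, ligand synthesis gene of 2 or moulting target of 4 was called. In M+P- male germlines none of these lists had a call.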

How the data were processed

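RNA was measured in 33 libraries and H3K27me3 and H3K36me3 by CUT&RUN in 12 libraries each. The submitters' processing notes name DESeq, DESeq2 1.22.2, HTSeq, Bowtie2 2.3.5.1 and TopHat2 2.1.1, without a role. Per the labels' design text RNA reads were mapped to ce10, so no coordinates are printed. Read counts per gene, for all reads and for reads assigned to the sperm or oocyte allele, are as the authors deposited them. The authors also deposited H3K27me3 and H3K36me3 z-scores per gene and library (score), and a table of group mean RPKM, log2 fold changes and p-values, of which only RPKM was used. RefSeq symbols matched 44080 of 45461 genes of the RNA table and 44256 of 45624 of the CUT&RUN table. Per-sample columns with no matching label numbered 0.

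Counts were tested with edgeR 4.0.16 (quasi-likelihood, TMM, filterByExpr) in R 4.3.3 over all genes. Benjamini-Hochberg adjustment was over all of them, with a threshold of 0.05. The 2-group and allele fits, but not the interaction fit, were run on simulated data. Simulated counts of the 2-group fits had a dispersion fixed at 0.05 rather than the spread of these data. The SE of a log2 fold change is its size divided by the square root of the F statistic. Allele tests compared sperm with oocyte reads within libraries for genes with a mean of at least 10 allele reads per library. The alternatives were DESeq2 1.42.0, no filter, library totals, a replicate block and leaving out single libraries. Counting intervals are exact at 95%, the floor is 3 counts, and both cover counting error only. In the F2 against the M+P+ F1, same-numbered RNA libraries deviated together (correlations of 0.299, 0.388 and 0.129), so the numbers were taken to pair them. The folds, SE and p-values given for that comparison are still of the fit without a block. Tables and figures used Python 3.11.15, pandas 2.3.3, numpy 2.4.6, scipy 1.17.1 and matplotlib 3.10.9.

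The members and lists were chosen with earlier results of these data known. Conserved receptors (nhr-6, nhr-8, nhr-23, nhr-25, nhr-41, nhr-48, nhr-67, nhr-85 and nhr-91), metabolic receptors (nhr-10, nhr-49, nhr-66, nhr-68, nhr-80, nhr-86 and nhr-114) and nhr-2, nhr-1, nhr-14, nhr-35, nhr-40, nhr-60, nhr-62, nhr-64, nhr-69 and nhr-81 were to be named where measured. So was every receptor called in a comparison that called at most 12, otherwise the 6 largest rises and the 6 largest falls, and the 6 highest levels per tissue. Other lists held receptors under other names, coregulators, ligand synthesis genes, lipid and propionate targets, moulting targets and markers of germline, oocyte, sperm, muscle, intestine, neuron, somatic gonad and hypodermis.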

Additional observations from a re-analysis of the deposited data

Results flagged for a closer look

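Of 30 checks in groups of 4 male germline libraries, each of 1 receptor or of the summed family, 9 held a library whose gap to the nearest other was wide for the group's range, and chance alone does this in about 1 in 20 groups. In 6 of the 9 it was M+P+ replicate 3, the library with high muscle markers. There nhr-10 had 4.16 CPM, nhr-69 3.23 CPM, nhr-22 2.63 CPM, nhr-78 0.594 CPM, nhr-165 0.17 CPM and nhr-81 0.0849 CPM. The others were M+P+ replicate 2 for nhr-277 (0.0786 CPM), M+P+ replicate 1 for nhr-213 (0.0725 CPM) and M+P+ replicate 1 for nhr-23 (225.7 CPM, below the other 3). For nhr-165, nhr-81, nhr-277 and nhr-213 the other 3 libraries of the group were at 0, so any count sets that library apart and the rate of 1 in 20 does not apply to these 4.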

How the results depend on the processing

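Of the named receptors' values, 380 kept their direction and side of the threshold, 117 lost the threshold and 0 changed sign. Of the counts of calls, 138 stayed within 1.5 times and 64 did not. DESeq2 called 9 receptors in hermaphrodite germlines, 6 in male germlines, 2 in larvae, 5 in the second-cross F1, 7 in the F2 against M+P+, 2 for F1 H3K36me3 and 10 for the tissue differences. With no filter the counts were 26 in hermaphrodites, 0 in males, 2 in larvae, 12 in the F2 and 2 for F1 H3K36me3. Library totals gave 1 for F2 H3K36me3, and moved the all-gene median there from 0.24 to 0.50. Leaving out 1 library gave 2 to 7 for fathers, 8 to 14 for hermaphrodites, 0 to 5 for males, 0 to 4 for the second-cross F1, 1 to 6 for the F2 and 11 to 45 between the sexes. For the marks it gave 0 to 1 for F1 H3K27me3, 4 to 16 for F2 H3K27me3, 0 to 102 for first-cross H3K36me3, 0 to 4 for F1 H3K36me3 and 0 to 24 for F2 H3K36me3. For alleles it gave 0 to 7 and 0 to 2 for H3K27me3 in the first and second cross and 0 to 29 for first-cross H3K36me3, and for tissue differences 0 to 11. A replicate block gave 15 for fathers, 0 for males, 10 for the F2, 47 between the sexes, 46 for first-cross H3K27me3, 30 for F1 H3K36me3 and 23 for F2 H3K36me3. Outside the F2 RNA, shared numbers were not shown to pair libraries. Pairing was accepted only with at least 3 pairs of libraries. First-cross H3K27me3 and H3K36me3 had same-number correlations of 0.67 and 0.36, but only 2 libraries a group. No share of all genes called is given beside these counts, so they describe the fits and not the receptors. Leaving out 1 library from a group of 2 leaves that group with 1 library. The cause of these moves was not tested. With 2 libraries per mark and group, small differences were not detectable.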
